A study of Mus musculus with 24 samples.

Results

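The genes described here are mouse zinc finger genes whose array name runs from Zfp800 to Zfp999. They were taken by name: all probes that the array files name Zfp8 or Zfp9 followed by 2 more digits and at most 1 letter, which gave 106 of 55681 probes other than controls, for 62 of 34836 gene names, up to Zfp963. A further 29 probes with 15 names in the range, Zfp967 to Zfp995, carry an older name in the files and reach the range only through their transcript accession in RefSeq. Zfp979 and Zfp982, which the choice of this set gave as its examples, are among those 29 probes. They are therefore described as values with no test and left out of the counts of calls, except the closing counts of calls kept under other settings. The 29 are kept apart from the 106, except in the counts of the clusters on chromosomes 4 and 17 and in those closing counts, which hold both. The range was proposed with strain differences on these arrays in view, so counts over its members are a description; within it the members were chosen by name, and Zfp979 and Zfp982 were selected on their strain differences.

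Most genes with such names encode C2H2 zinc finger proteins, in which a row of short finger motifs reads a stretch of DNA, and many also carry a KRAB domain at the other end. KRAB recruits the corepressor TRIM28 (KAP1), which brings the histone methyltransferase SETDB1 and other silencing proteins to the bound site. Many targets are endogenous retroviruses, and the genes lie in clusters of near copies that differ between species and between mouse strains. In fat and muscle few of these proteins have a described role, and most were named in numerical order without one.

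Gene expression was compared between male NZO mice, labelled NZO/HiBomDife, a New Zealand Obese line that becomes obese and diabetic, and male C57BL/6 mice (B6), which are lean and resist diabetes. All mice of both strains were fed a diet with 45% fat and were 6 weeks old. RNA was taken from 3 tissues: white fat of the gonadal depot (gWAT), skeletal muscle (titled quad) and brown fat (BAT). Each strain has 4 arrays per tissue. Most replicate numbers recur across the tissues of a strain, so tissues may come from the same animals, which the labels do not say. The fits treat the arrays as independent. Nothing in the labels ties each sample to an animal of its own; p-values therefore describe the spread between samples, part of which may be technical. Each sample was 1 single-colour Agilent array of 60-base probes; levels are log2 signals after subtraction of each array's own 75th percentile, so a level of 0 is the 75th percentile itself. The 75th percentile ranged from 118.8 to 311 signal units over the arrays. B6 muscle array 011 was left out, so B6 muscle has 3 arrays and 23 arrays were used: its summed signal of 8 adipocyte marker genes was 10.56 on the log2 scale, against 7.92 to 8.25 on the other B6 muscle arrays.

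Detection was high for these genes. A probe counts as detected in a group when the scanner software marked it well above background on all arrays of that group. By that measure 95 of the 106 probes, for 57 names, were detected in at least 1 group, and 65 were well above background on all 23 arrays. Detected probes numbered 84 in NZO gWAT and 90 in B6 gWAT, 80 in NZO BAT and 80 in B6 BAT, and 73 in NZO muscle and 76 in B6 muscle. As shares of the 106 these run from 68.9% in NZO muscle to 84.9% in B6 gWAT, while 48.7% to 52.8% of all probes were detected in the same groups. No array was well above background for 5 probes: that of Zfp804a, whose human counterpart ZNF804A is a schizophrenia-associated gene, those of Zfp811, Zfp853 and Zfp819, which guards genome integrity in embryonic stem cells, and 1 of the probes of Zfp831. Just short of detection lay 1 probe of Zfp936 (A_55_P1996052) with 6 arrays, and just inside lay Zfp932 (A_55_P2025865) and Zfp951 (A_66_P137410) with 5 arrays each.

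**Figure D1:**
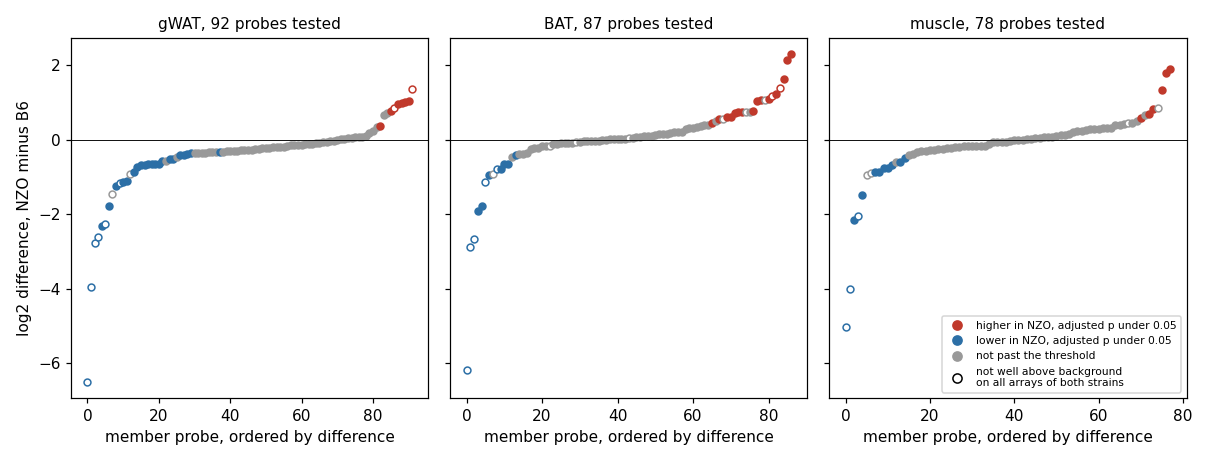
Log2 difference, NZO minus B6, of each tested probe named Zfp800 to Zfp999 in gWAT (92 probes), BAT (87) and muscle (78), ordered by the difference. Red marks higher and blue lower in NZO at an adjusted p under 0.05, grey marks probes that did not pass, and open symbols were not well above background on all arrays of both strains; the highest differences are 1.37 in gWAT, 2.30 in BAT and 1.90 in muscle, and the lowest point of each panel is a probe of Zfp874a at or near background in NZO, so its depth on the axis is not an exact size.

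The strains differed in these genes in all 3 tissues, with more genes lower than higher in NZO gWAT and muscle and more higher than lower in NZO BAT. In gWAT 35 of 92 tested probes (38.0%) passed an adjusted p of 0.05, 8 higher and 27 lower in NZO, beside 31.8% of all 30616 probes tested there (15.6% higher, 16.3% lower). In BAT 29 of 87 (33.3%) passed, 17 higher and 12 lower, beside 15.3% of all probes (7.48% higher, 7.78% lower). In muscle 18 of 78 (23.1%) passed, 6 higher and 12 lower, beside 10.8% of all probes (4.44% higher, 6.37% lower). A probe entered a tissue's test when all arrays of at least 1 strain there were well above background, so a probe dark in 1 strain had to differ, and these shares are a description. Among probes well above background in both strains, 27 of 82 passed in gWAT beside 30.3% of all such probes, 22 of 73 in BAT beside 13.7%, and 15 of 71 in muscle beside 9.85%. In gWAT the share of these measured probes that passed was therefore near that of all probes.

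The gWAT direction depended on how the arrays were put on 1 scale. With each array centred on its median, 20 members passed in gWAT, 9 higher and 11 lower, and the median difference of all probes stood at 0.25 in place of -0.01. The median member difference was then -0.01 in place of -0.27. In BAT and muscle the median member differences were 0.05 and -0.04, beside 0.01 and -0.05 over all probes. Other numbered Zfp genes, outside this range, also had more lower than higher probes in gWAT: 126 of 378 passed, 19 higher and 107 lower. In BAT 51 of 353 of them passed (30 higher, 21 lower), and in muscle 52 of 361 (13 higher, 39 lower); the members' shares were not tested against theirs. In plain fold terms, 14 members that passed in gWAT differed at least 2-fold, 15 in BAT and 8 in muscle. These counts include probes dark in 1 strain, whose fold is not exact. The share of all probes at that size was not counted, so whether the counts are high is not known. The plot of member differences ordered by size shows that a few genes far from 0 stand apart from a flat middle.

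Of the 77 members tested in all 3 tissues, 43 passed in at least 1 (55.8%, beside 39.7% of all probes tested in all 3). In every tissue and in the same direction, 11 passed. Zfp945, with 2 probes, and Zfp963 were higher in NZO (1.57% of all probes were higher in all 3), and Zfp867, Zfp874a, Zfp930, Zfp932, Zfp933, Zfp943, Zfp944 and Zfp960 were lower, each by 1 probe (2.07% of all probes). The Zfp874a and Zfp944 probes entered the test of each tissue only through B6, as did Zfp867 in gWAT and muscle, so their calls are a description. With B6 muscle array 011 kept, Zfp943 and Zfp960 no longer passed in muscle and 6 were lower in all 3. In RNA from whole tissue, fewer cells of a type and less RNA per cell cannot be told apart.

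Short stretches of the probes behind the strongest contrasts follow, since each value below is the brightness of 1 such probe and probes of 1 gene differed. Each is the first 30 of the 60 bases, from the 5' end, as the array files give them, with the position of the whole probe on the mouse build mm9 and its strand.
Zfp874a, A_52_P981697, chr13:67541780-67541839, minus strand: cctgtacctctgtatctgttgttgtggtat
Zfp874a, A_55_P2087691, chr13:67525508-67525567, minus strand: cacatctttgatgtaatatcccaccacttt
Zfp944, A_55_P1972510, chr17:22475396-22475455, minus strand: gcacctaagtagtgttcaaatcatagaaac
Zfp944, A_55_P2167406, chr17:22477775-22477834, minus strand: ggaaattctagttacaaacttttcattgtt
Zfp945, A_55_P1978166, chr17:22986053-22986112, minus strand: gttctagtgaaaacatcaaatgtgtgattt
Zfp945, A_55_P2081393, chr17:22984483-22984542, minus strand: catgccatcagtgtgtaacgactcattgca
Zfp933, A_52_P88793, chr4:147197098-147197157, minus strand: ggggcaggtgtattccttttcatttgaagc
Zfp930, A_55_P1959076, chr8:71752820-71752879, plus strand: agcagtctccaaatgcataaaagaacacat
The files do not say whether a probe lies in coding or untranslated sequence, and no NZO genome was used here, and whether the 60 bases match the NZO transcript was not tested.

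Zfp874a, a zinc finger gene on chromosome 13, read far lower in NZO than in B6 in each tissue. Its probe A_52_P981697 read -6.50, -6.65, -6.85 and -6.81 in NZO gWAT, against -0.20, -0.02, -0.35 and -0.27 in B6 gWAT. In BAT it read -6.13, -5.63, -5.76 and -6.10 in NZO and 0.25, 0.58, 0.28 and 0.03 in B6. In muscle it read -3.47, -6.13, -6.26 and -6.09 in NZO and -0.55, -0.47 and -0.37 in B6. The strains were far apart in every tissue, and the probe was well above background on no NZO array of gWAT or BAT and on 1 of 4 in muscle. NZO was therefore at least 23.9-fold lower in gWAT (adjusted p = 3.87e-08) and at least 23.6-fold lower in BAT (adjusted p = 3.69e-07), where a bound sets the B6 mean against the lowest signal that still counts as above background. The probe entered both tests only through B6, so these adjusted p-values of the limma fit are a description. The muscle difference was -5.02 (SE 0.67, adjusted p = 0.00402), and -4.89 with B6 muscle array 011 kept. Its size rests on NZO signals near background, and it ran between -5.69 and -1.43 over the alternatives. A second Zfp874a probe, A_55_P2087691, was dim in both strains and no NZO array had it above background, with NZO at least 1.72-fold lower in gWAT and at least 1.70-fold lower in BAT (adjusted p = 6.63e-06 and 0.000244). Those 2 bounds did not pass after normexp background correction, while A_52_P981697 passed under each alternative.

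The neighbours of Zfp874a on chromosome 13 differed less. Its cluster, members no more than 1 Mb apart between 67440245 and 67574504, also holds Zfp874b and Zfp953. Of the 6 probes tested there, 2 were lower in NZO gWAT, 3 in BAT and, of 5, 1 in muscle, and none was higher. Of all probes, 16.3%, 7.78% and 6.37% were lower in these tissues. Other probes in the stretch numbered 1 higher and 0 lower of 3 in gWAT, and 0 and 0 of 3 in both BAT and muscle. Each zinc finger call here was of a probe that entered its test only through B6, so these counts and their direction are a description. Beside those of both Zfp874a probes, the remaining BAT decrease was that of A_55_P2141866 of Zfp874b, at -1.13 (SE 0.21, adjusted p = 0.00838) with 1 of 4 NZO arrays above background. Its size is therefore not exact, and it did not pass after normexp background correction (adjusted p = 0.212). Zfp953 had differences of -0.03, -0.12 and 0.23 in gWAT, BAT and muscle, none past the threshold.

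On chromosome 17 a cluster from 21725548 to 22986112 holds 10 zinc finger names of the range, among them Zfp944 and Zfp945, whose strongest probes went opposite ways. Zfp944 probe A_55_P1972510 read -6.68, -5.97, -6.98 and -6.70 in NZO gWAT against -2.44, -2.79, -2.59 and -2.68 in B6 gWAT. BAT levels were -6.39, -6.64, -4.06 and -6.35 in NZO and -3.05, -2.63, -2.83 and -3.39 in B6, and in muscle -6.39, -6.42, -6.49 and -5.48 in NZO and -2.17, -2.16 and -2.25 in B6. No NZO array was above background and all B6 arrays were, with NZO at least 4.48-fold lower in gWAT, 2.46-fold in BAT and 4.35-fold in muscle (adjusted p = 8.49e-06, 0.00837 and 0.000132). Zfp944 probes A_51_P233308 and A_52_P576689 were above background on all NZO arrays, so not every probe of this name was dark. Which transcripts each probe reads in NZO was not tested. A_51_P233308 averaged -2.20 ± 0.10 in NZO gWAT and -1.34 ± 0.25 in B6 gWAT (SD, n = 4 each), a difference of -0.86 (adjusted p = 0.00292). That probe's difference was -0.38 in BAT (adjusted p = 0.234) and -0.86 in muscle (adjusted p = 0.00199), where it did not pass with B6 muscle array 011 kept (-0.68, adjusted p = 0.0742).

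The probe A_55_P2167406 of Zfp944 went the other way in brown fat. It read -3.21, -2.86, -2.70 and -3.37 in NZO BAT against -4.22, -4.33, -3.95 and -4.37 in B6 BAT, where no array was above background. NZO BAT was at least 2.15-fold higher by this probe (adjusted p = 0.0024), while in gWAT it read -3.82, -3.07, -2.92 and -4.17 in NZO and -3.55, -3.03, -2.79 and -3.38 in B6, which overlap. The test of the gWAT difference minus the BAT difference passed (adjusted p = 0.0141), and its size is not exact because the B6 BAT signals were not above background. The BAT call did not pass after normexp background correction or with the slide as a fixed block.

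Zfp945, at the end of the same cluster, was higher in NZO by both of its brighter probes in all tissues. A_55_P2081393 read -0.06, -0.12, -0.14 and -0.26 in NZO gWAT, against -1.23, -1.16, -1.14 and -1.28 in B6 gWAT. The BAT arrays gave -0.58, -0.47, -0.37 and -0.78 in NZO and -3.04, -2.44, -2.66 and -2.69 in B6, and in muscle -0.80, -0.56, -0.77 and -0.66 in NZO and -2.73, -2.51 and -2.55 in B6. The strains did not overlap anywhere, and the levels in NZO were closer to each other across tissues than those in B6. NZO was 2.08-fold higher in gWAT (log2 1.05, SE 0.10, adjusted p = 0.000137), 4.46-fold in BAT (2.16, SE 0.15, adjusted p = 4.48e-05) and 3.74-fold in muscle (1.90, SE 0.12, adjusted p = 0.000112). A_55_P1978166 gave 0.99, 2.30 and 1.81. The gWAT difference minus the BAT difference was -1.10 (SE 0.16, adjusted p = 0.000115) by the first probe and -1.32 (SE 0.23, adjusted p = 0.000685) by the second. The dimmest of its probes, A_66_P110532, passed in gWAT alone, at 0.77 (adjusted p = 0.0199), and not without B6 gWAT array 010 (0.73, adjusted p = 0.058). Its differences in BAT and muscle were 1.07 and -0.19. The BAT size is not exact because no B6 BAT array was above background.

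The other members of that chromosome 17 cluster moved less. Zfp943 was lower in NZO, at -0.65 in gWAT (adjusted p = 0.00646), -0.39 in BAT (adjusted p = 0.0348) and -0.75 in muscle (adjusted p = 0.00839). The BAT call was lost without any 1 of 7 of the 8 BAT arrays, all but NZO BAT array 011 (adjusted p 0.0599 to 0.103), and the muscle call without B6 muscle array 010 (adjusted p = 0.0507). Zfp947 was lower in NZO muscle (-0.75, adjusted p = 0.00617), and did not pass in gWAT (-0.27) or BAT (-0.04). Zfp820, Zfp946 and Zfp948 did not pass in any tissue, with 1 exception: Zfp820 probe A_55_P1955325 was higher in NZO BAT by 0.61 (adjusted p = 0.0397), and lost that without any 1 of NZO BAT arrays 009, 011 and 003 or B6 BAT arrays 010, 015 and 009 (adjusted p 0.0873 to 0.112). Over the whole cluster, with Zfp983, Zfp994 and Zfp995 that are named through RefSeq, 5 zinc finger probes were higher and 4 lower of 19 in gWAT, 5 and 3 of 17 in BAT, and 3 and 5 of 16 in muscle. Without those renamed genes the counts were 3 and 4 of 14, 4 and 2 of 13, and 2 and 5 of 12. Among the other probes in the same stretch, 2 were higher and 15 lower of 51 in gWAT, 10 and 11 of 47 in BAT, and 3 and 13 of 44 in muscle.

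**Figure D2:**
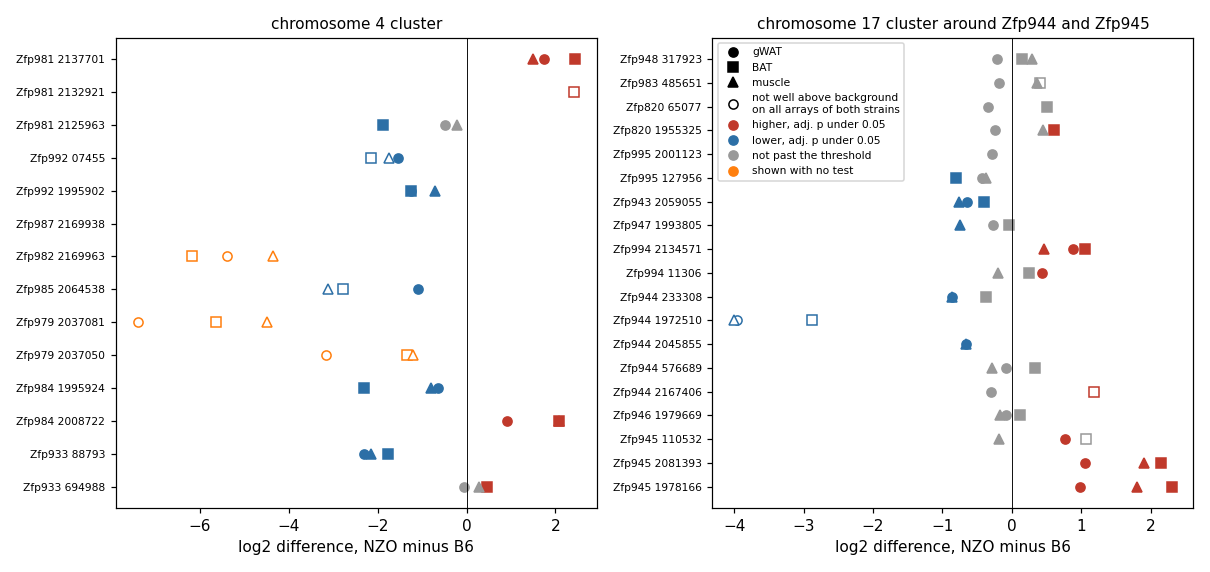
Log2 difference, NZO minus B6, of each zinc finger probe in the chromosome 4 cluster (left) and the chromosome 17 cluster with Zfp944 and Zfp945 (right), in genome order from top to bottom; circles are gWAT, squares BAT and triangles muscle. Red marks higher and blue lower at an adjusted p under 0.05, grey did not pass, open symbols were not well above background on all arrays of both strains, and Zfp979 and Zfp982 (orange) are shown with no test; Zfp933 A_52_P88793 lies at -2.31, -1.77 and -2.16 and Zfp984 A_55_P2008722 at 0.92, 2.09 and 2.09.

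The cluster on chromosome 4 runs from 145658644 to 147200066 and holds Zfp933 together with 7 names that the files give under older names. Without Zfp979 and Zfp982, its zinc finger probes numbered 2 higher and 5 lower of 9 in gWAT, 4 and 6 of 10 in BAT, and 2 and 5 of 9 in muscle, with median differences of -0.64, -1.51 and -0.71. Other probes in the stretch numbered 2 higher and 13 lower of 32 in gWAT, 1 and 4 of 23 in BAT, and 0 and 3 of 20 in muscle. The plot of both clusters in genome order shows that higher and lower probes lie side by side, often within 1 gene.

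Zfp933 probe A_52_P88793 read -2.34, -2.78, -2.48 and -2.80 in NZO gWAT, against -0.37, -0.26, -0.37 and -0.18 in B6 gWAT. In BAT the levels were -1.97, -1.89, -1.69 and -1.95 in NZO and -0.12, 0.14, -0.27 and -0.18 in B6, and in muscle -1.04, -1.27, -1.33 and -1.43 in NZO and 0.95, 0.83 and 0.89 in B6. Every NZO array lay below every B6 array of its tissue, and muscle was the brightest tissue in both strains. The differences were -2.31 (SE 0.14, adjusted p = 1.35e-05), -1.77 (SE 0.12, adjusted p = 3.81e-05) and -2.16 (SE 0.12, adjusted p = 8.49e-05). The other Zfp933 probe, A_52_P694988, gave 0.46 in BAT (adjusted p = 0.0223), and its -0.06 in gWAT and 0.27 in muscle did not pass. Its BAT call was lost without any 1 of NZO BAT arrays 009 and 003 and B6 BAT arrays 010, 011 and 009 (adjusted p 0.0605 to 0.0739).

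Zfp979, and Zfp982, a gene known from mouse embryonic stem cells, lie in this cluster and were selected on their strain differences. The stretches of their probes and of both Zfp984 probes follow, again the first 30 bases.
Zfp979, A_55_P2037081, chr4:146986053-146986112, minus strand: cccccttttgttctagtcaacaactccttc
Zfp982, A_55_P2169963, chr4:146887459-146887518, plus strand: caagtgctttccccaaaaatcctatcttag
Zfp984, A_55_P1995924, chr4:147128308-147128367, minus strand: tgtgaaaatgtagaaagcctttcatgacac
Zfp984, A_55_P2008722, chr4:147130176-147130235, minus strand: tatcaaggtgattcttgaatccccccaatg
Zfp979 read -4.92, -6.81, -6.20 and -5.93 in NZO gWAT against 1.48, 1.35, 1.48 and 1.47 in B6 gWAT, at least 75.2-fold lower. Its BAT levels were -4.86, -4.37, -4.30 and -4.73 in NZO and 1.13, 1.10, 1.22 and 0.89 in B6, at least 40.2-fold lower. In muscle it read -3.91, -3.28, -4.08 and -3.70 in NZO, 3 of 4 arrays above background, against 0.68, 0.86 and 0.72 in B6. By this probe, A_55_P2037081, the B6 level was above the 75th percentile of the array in every tissue. The other Zfp979 probe, A_55_P2037050, was dimmer, at -6.90, -5.52, -6.55 and -5.85 in NZO gWAT, none above background, against -2.81, -3.01, -3.09 and -3.23 in B6 gWAT, at least 3.37-fold lower. It read -4.76, -4.05, -4.95 and -3.83 in NZO BAT, 2 of 4 above background, against -3.08, -3.62, -3.10 and -2.43 in B6 BAT, and overlapped between strains in muscle. Zfp982 read -5.44, -3.73, -5.56 and -4.91 in NZO gWAT against 0.61, 0.59, 0.55 and 0.20 in B6 gWAT. BAT arrays read -3.82, -4.46, -5.70 and -6.09 in NZO and 1.35, 1.12, 1.00 and 1.18 in B6, at least 39.5-fold lower. Its muscle levels were -4.76, -5.15, -5.00 and -6.08 in NZO and -0.67, -0.73 and -1.30 in B6, at least 10.7-fold lower.

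Zfp984 showed both directions in 1 gene name. Probe A_55_P1995924 read 0.03, 0.44, -0.08 and -0.02 in NZO gWAT against 0.81, 0.68, 0.75 and 0.69 in B6 gWAT, a difference of -0.64. It read -1.97, -1.89, -1.50 and -2.14 in NZO BAT against 0.52, 0.53, 0.32 and 0.37 in B6 BAT, a difference of -2.31, and the muscle difference was -0.80. Without B6 muscle array 010 the muscle value of -0.80 no longer passed (adjusted p = 0.0551). Probe A_55_P2008722 was higher in NZO in all tissues. It read 1.41, 1.46, 1.33 and 1.46 in NZO gWAT against 0.46, 0.60, 0.66 and 0.25 in B6 gWAT, and 1.24, 1.21, 1.10 and 1.25 in NZO BAT against -0.86, -0.84, -0.93 and -0.89 in B6 BAT. Its differences were 0.92 (adjusted p = 0.000736), 2.09 (adjusted p = 2.57e-06) and, in muscle, 2.09 (adjusted p = 0.000466). Other renamed genes of the cluster also passed in all tissues. Zfp981 probe A_55_P2137701 was higher in NZO by 1.75, 2.44 and 1.50, while its probe A_55_P2125963 gave -0.49 in gWAT and -0.22 in muscle, which did not pass, and -1.89 in BAT, which did. Zfp992 probe A_55_P1995902 was lower in NZO, at -1.25, -1.26 and -0.71. Zfp985 was lower in NZO, at -1.09 in gWAT, at least 1.77-fold in BAT and at least 3.58-fold in muscle, and lost the gWAT call without B6 gWAT array 010 (-1.01, adjusted p = 0.0548). Of the 29 probes renamed through RefSeq, leaving out Zfp979 and Zfp982, 13 of 24 tested passed in gWAT (4 higher, 9 lower), 12 of 24 in BAT (5 higher, 7 lower) and 9 of 23 in muscle (3 higher, 6 lower), beside 31.8%, 15.3% and 10.8% of all probes.

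Zfp930 and Zfp963 lie in 1 cluster on chromosome 8, from 71752264 to 72290646, and differed in opposite directions. Zfp930 probe A_55_P1959076 read -3.28, -3.20, -3.62 and -3.16 in NZO gWAT against -1.42, -1.50, -1.68 and -1.49 in B6 gWAT. In BAT it read -2.46, -2.50, -2.13 and -3.09 in NZO and -0.64, -0.49, -0.80 and -0.60 in B6, and in muscle -3.55, -2.92, -3.28 and -3.35 in NZO and -1.75, -1.76 and -1.85 in B6. The strains stood clear of each other in all tissues, with BAT the brightest. The differences were -1.79 (SE 0.13, adjusted p = 4.36e-05), -1.91 (SE 0.19, adjusted p = 0.00033) and -1.49 (SE 0.16, adjusted p = 0.00141). The much brighter probe A_51_P517120 of the same gene, at a mean of 2.01 in NZO gWAT and 2.31 in B6 gWAT, did not pass in any tissue (-0.30, -0.09 and -0.24).

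Zfp963 read -2.38, -2.30, -2.49 and -2.45 in NZO gWAT against -3.10, -2.84, -4.06 and -3.73 in B6 gWAT. The BAT levels were -2.10, -2.04, -2.02 and -2.47 in NZO and -2.66, -3.51, -3.23 and -3.66 in B6. In muscle it read -1.41, -1.40, -1.37 and -1.29 in NZO and -2.61, -2.99 and -2.50 in B6. The NZO arrays lay close together and above all B6 arrays of the tissue. NZO was higher by 1.03 (SE 0.26, adjusted p = 0.0173) in gWAT, 1.11 (SE 0.22, adjusted p = 0.0109) in BAT and 1.34 (SE 0.14, adjusted p = 0.00131) in muscle. Around these genes in the cluster, Zfp866, Zfp868 and Zfp869 differed by less: Zfp866 probe A_52_P22781 was lower in NZO gWAT (-0.64), its probe A_55_P2022885 was higher in NZO BAT (0.61), Zfp868 was higher in NZO BAT (0.55) and Zfp869 was lower in NZO gWAT (-0.31). The 0.61 of Zfp866 was lost without any 1 of NZO BAT array 009 and B6 BAT arrays 010, 015 and 009 (adjusted p 0.053 to 0.0741). The 0.55 of Zfp868 was lost without NZO BAT array 003 or 009 (adjusted p 0.0522 and 0.0552), and the -0.31 of Zfp869 without any 1 of the 8 gWAT arrays (adjusted p 0.0538 to 0.107). Another Zfp868 probe, A_52_P417990, was above background on all NZO muscle arrays and on no B6 muscle array used, and did not pass in muscle.

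**Figure D3:**
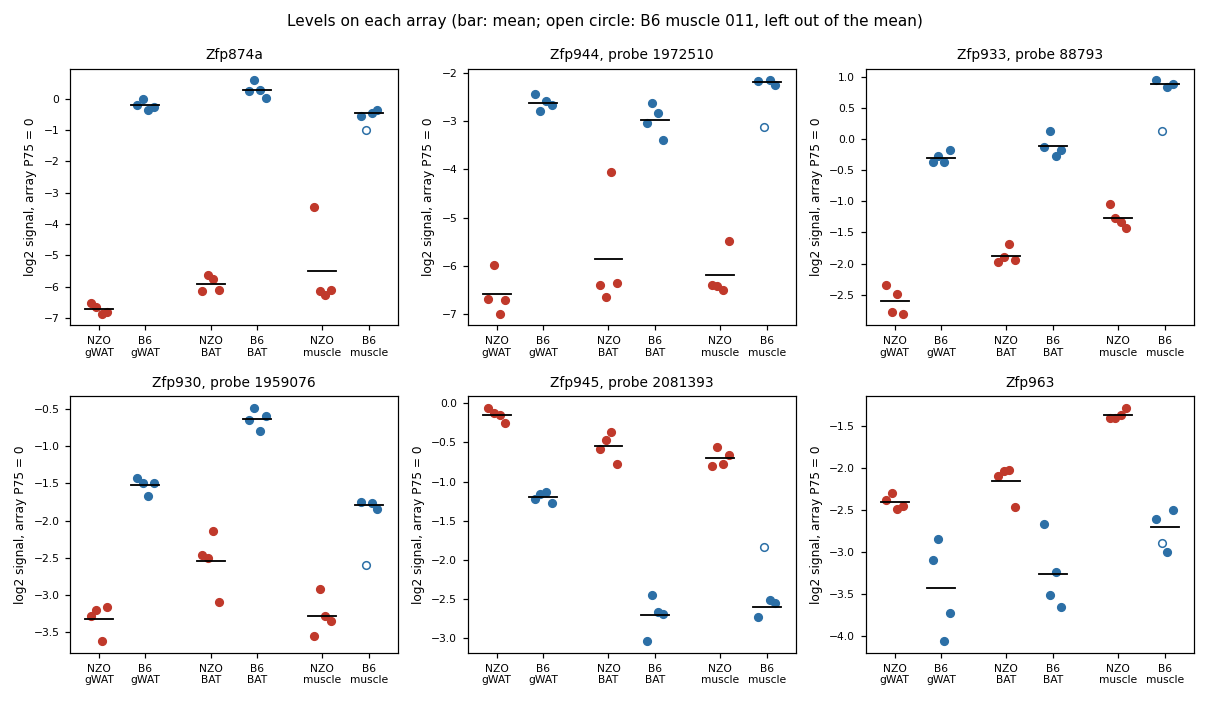
Level of 6 probes on each array (log2 signal, array 75th percentile = 0), with NZO (red) left of B6 (blue) in gWAT, BAT and muscle; a bar is the mean and the open circle is B6 muscle array 011, which is left out of the mean. Zfp874a, Zfp944, Zfp933 and Zfp930 are lower and Zfp945 and Zfp963 higher on every NZO array than on any B6 array used of the same tissue.

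The plot of levels on each array shows these 6 genes side by side. On B6 muscle array 011 the probes of Zfp874a, Zfp944, Zfp933, Zfp930 and Zfp945 read nearer to NZO than the other B6 muscle arrays did, at -1.0, -3.12, 0.13, -2.59 and -1.83. With that array kept the muscle differences were -1.97 for Zfp933, -1.29 for Zfp930, 1.71 for Zfp945 A_55_P2081393 and 1.38 for Zfp963, and each passed.

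Zfp932 represses endogenous retroviruses in mouse embryonic stem cells. Its probe A_55_P2032294 read 0.35, 0.20, 0.28 and 0.14 in NZO gWAT against 1.45, 1.42, 1.18 and 1.31 in B6 gWAT. Readings in BAT were 0.23, 0.49, 0.28 and 0.12 in NZO and 1.08, 1.21, 1.04 and 0.97 in B6, and in muscle 0.83, 0.55, 0.59 and 0.67 in NZO and 1.55, 1.47 and 1.53 in B6. The strains did not overlap, and the gene was bright in both. The differences were -1.10 (adjusted p = 0.000202), -0.79 (adjusted p = 0.00167) and -0.86 (adjusted p = 0.00319), and the muscle value was -0.74 with B6 muscle array 011 kept (adjusted p = 0.0259). Its other probes read differently: A_55_P2025865 was at least 2.67-fold lower in NZO gWAT (adjusted p = 0.00306), and A_55_P2032278 gave -0.13 in gWAT, 0.73 in BAT (adjusted p = 0.0327) and -0.28 in muscle. That BAT call was lost without any 1 of NZO BAT arrays 009 and 003 and B6 BAT arrays 010, 015 and 009 (adjusted p 0.0688 to 0.0888).

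Zfp867 probe A_55_P2123047 read -4.42, -3.84, -3.40 and -5.79 in NZO gWAT against -2.22, -1.16, -2.36 and -2.71 in B6 gWAT. In BAT it read -3.32, -3.01, -3.28 and -3.31 in NZO and -2.68, -1.87, -2.34 and -2.31 in B6, and in muscle -3.28, -3.56, -4.07 and -4.02 in NZO and -1.52, -1.92 and -1.60 in B6. By this probe NZO was lower on every array, with differences of -2.25 in gWAT (SE 0.53, adjusted p = 0.0138, 2 of 4 NZO arrays above background), -0.93 in BAT (adjusted p = 0.00795) and -2.05 in muscle (adjusted p = 0.00159, 3 of 4). The BAT call did not pass with the slide as a fixed block. The other Zfp867 probe, A_55_P2363442, was above background on all 23 arrays and did not pass in gWAT or BAT. It passed in muscle, at -0.51 to -0.43 with each array left out in turn. That call was lost without any 1 of 5 of the 7 muscle arrays (adjusted p 0.0501 to 0.112). Zfp960 was lower by smaller amounts than Zfp867 A_55_P2123047, at -0.58, -0.65 and -0.60 (adjusted p = 0.0166, 0.0127 and 0.0214). It was lost in gWAT without B6 gWAT array 010 (-0.54, adjusted p = 0.054) and in muscle without any 1 of NZO muscle array 003 and B6 muscle arrays 010, 015 and 009 (adjusted p 0.0585 to 0.0899).

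Several members passed in 1 or 2 tissues. Zfp949 was higher in NZO BAT by both probes, at 1.63 (SE 0.16, adjusted p = 0.000253) and 1.04 (adjusted p = 0.00168). The same probes, A_55_P2170536 and A_51_P513244, gave 0.67 and 0.71 in gWAT and 0.43 and 0.32 in muscle, none past the threshold. Zfp961 probe A_55_P2015912 was higher in NZO gWAT (0.97, adjusted p = 0.000243) and NZO BAT (1.07, adjusted p = 0.000571), with 0.67 in muscle (adjusted p = 0.115). The brighter Zfp961 probe A_55_P2014570 gave -0.20, -0.38 and -0.37, none past the threshold. Zfp951 probe A_66_P137410 read -3.61, -4.02, -3.43 and -4.05 in NZO gWAT against -4.58, -5.55, -5.24 and -5.23 in B6 gWAT, where no array was above background. It was at least 1.98-fold higher in NZO gWAT (adjusted p = 0.00306). Zfp810 was higher in NZO muscle by 0.58 (adjusted p = 0.0115), and not without B6 muscle array 010 or 009 (adjusted p = 0.056 and 0.0622).

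White fat gave a group of small decreases. Zfp800 probe A_55_P1955309 (-0.50, adjusted p = 0.00991), 1 probe of Zfp865 (-0.40), Zfp936 (-0.68), Zfp939 (-0.73) and 1 probe of Zfp941 (-0.64) were lower in NZO gWAT, and these probes did not pass in BAT or muscle. The other Zfp800 probe, A_55_P2055612, gave -0.33 in gWAT (adjusted p = 0.246) and passed in BAT, at -0.80 (adjusted p = 0.0395, 2 of 4 NZO arrays above background), a call lost without any 1 of 6 of the 8 BAT arrays (adjusted p 0.0716 to 0.112). That probe entered the BAT test only through B6, so the call is a description. It did not pass after normexp background correction (adjusted p = 0.414). The test of the difference between tissues passed for Zfp939, at -0.72 for gWAT minus BAT (adjusted p = 0.0259), and not for the others. With the arrays centred on the median none of these 5 passed in gWAT. Zfp939 was lost in gWAT without B6 gWAT array 011 (adjusted p = 0.0523), and its gWAT minus BAT value without any 1 of NZO gWAT arrays 009 and 007, B6 gWAT array 011 and NZO BAT arrays 009 and 003 (adjusted p 0.0515 to 0.0609). Zfp941 was lost without any 1 of 7 of the 8 gWAT arrays, all but NZO gWAT array 007 (adjusted p 0.0518 to 0.106). Summed macrophage marker signal was 7.80 to 8.12 in NZO gWAT against 6.16 to 6.46 in B6 gWAT on the log2 scale, with all 8 markers above background on every array of both. The 6 brown adipocyte markers summed to 6.02 to 6.73 in NZO gWAT, all 6 above background, against 2.82 to 3.77 in B6 gWAT, 4 to 6 above background. Cell cycle genes, 7 or 8 of 8 above background in both strains, summed to 4.72 to 5.05 in NZO gWAT against 3.17 to 3.37 in B6 gWAT. The part of these cells in the gWAT differences was not tested.

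Among members with a described role, none of the following passed in any tissue tested. Zfp809, which starts retroviral silencing in mouse embryonic cells, gave -0.22, 0.37 and 0.29 by 1 probe and -0.18, 0.19 and 0.00 by the other. Zfp830, a genome integrity factor, gave 0.07, 0.20 and -0.07. Zfp827, whose human counterpart ZNF827 acts at telomeres, was tested in BAT alone, at 0.05 (adjusted p = 0.955).

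The strain difference itself differed between tissues for some members. Among 95 members tested, 15 differed between gWAT and BAT, and in all 15 the NZO minus B6 value was lower in gWAT. Of all 33394 probes 17.3% differed, 8.69% with the higher and 8.65% with the lower value in gWAT. With the arrays centred on the median, 5 of the members passed: both probes of Zfp879, both brighter probes of Zfp945 and Zfp944 A_55_P2167406. Between gWAT and muscle 12 differed, 10 of them lower in gWAT, and 3 with median centring. Of all probes 18.7% differed there, 10.9% higher and 7.82% lower in gWAT. Among the 12, Zfp932 A_55_P2025865 and Zfp951 A_66_P137410 entered only through 1 gWAT group, so their calls are a description. Between BAT and muscle 3 differed, all higher in BAT, beside 4.91% of all probes (2.7% higher, 2.22% lower), and none with median centring, while Zfp932 A_55_P2032278 (1.01, SE 0.23, adjusted p = 0.0116) and Zfp947 (0.71, SE 0.16, adjusted p = 0.0118) kept their call without any 1 array. The remaining one, Zfp873 (adjusted p = 0.0409), which was not above background in B6 BAT, was lost without any 1 of 12 of the 23 arrays (adjusted p 0.0518 to 0.116).

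Zfp879 was lower in NZO gWAT and higher in NZO BAT by its brighter probe. Its probes overlap on chromosome 11 by 12 of their 60 bases, so they read adjoining places. The stretches that hold the 12 shared bases, in capitals, are shown: the first 30 bases of A_55_P2035549 and the last 30 of A_55_P2169019.
Zfp879, A_55_P2035549, chr11:50645537-50645596, minus strand: CGTGGGTAACGCacagctgcttcagggtca
Zfp879, A_55_P2169019, chr11:50645585-50645644, minus strand: cacgagaaaagaagtctgCGTGGGTAACGC
A_55_P2035549 read -3.39, -4.30, -4.36 and -3.85 in NZO gWAT against -2.74, -2.35, -2.93 and -2.95 in B6 gWAT. BAT readings were -0.42, -0.70, -0.65 and -0.86 in NZO and -1.50, -0.91, -1.93 and -1.40 in B6, and in muscle 0.25, 0.08, 0.11 and 0.27 in NZO and -0.10, -0.73 and -0.18 in B6. NZO was below B6 on all gWAT arrays and above it on all BAT and muscle arrays. The differences were -1.23 in gWAT (SE 0.24, adjusted p = 0.00594), 0.78 in BAT (adjusted p = 0.0386) and 0.51 in muscle (adjusted p = 0.105). After normexp background correction the gWAT difference was -0.31 and did not pass (adjusted p = 0.108). The BAT call was lost without any 1 of NZO BAT arrays 009, 011 and 003 and B6 BAT arrays 010, 015 and 009 (adjusted p 0.0708 to 0.110). The gWAT difference minus the BAT one was -2.01 (SE 0.31, adjusted p = 0.000192), and minus the muscle one -1.75 (SE 0.32, adjusted p = 0.00109). The dimmer A_55_P2169019 gave 1.24 in BAT (adjusted p = 0.00838) and 0.82 in muscle (adjusted p = 0.0321). Its gWAT value of -1.46 (SE 0.83, adjusted p = 0.21) rests on B6 gWAT array 015, which read -0.33 beside -4.42, -3.91 and -4.16 on the others. The muscle call was lost without any 1 of NZO muscle arrays 009, 003 and 007 and B6 muscle arrays 015 and 009 (adjusted p 0.0638 to 0.117), and the gWAT against BAT difference of -2.70 (adjusted p = 0.0276) without any 1 of NZO gWAT array 007, NZO BAT array 009 and B6 BAT arrays 015 and 009 (adjusted p 0.0509 to 0.0534). That difference ran from -3.10 to -1.74 with each array left out in turn.

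**Figure D4:**
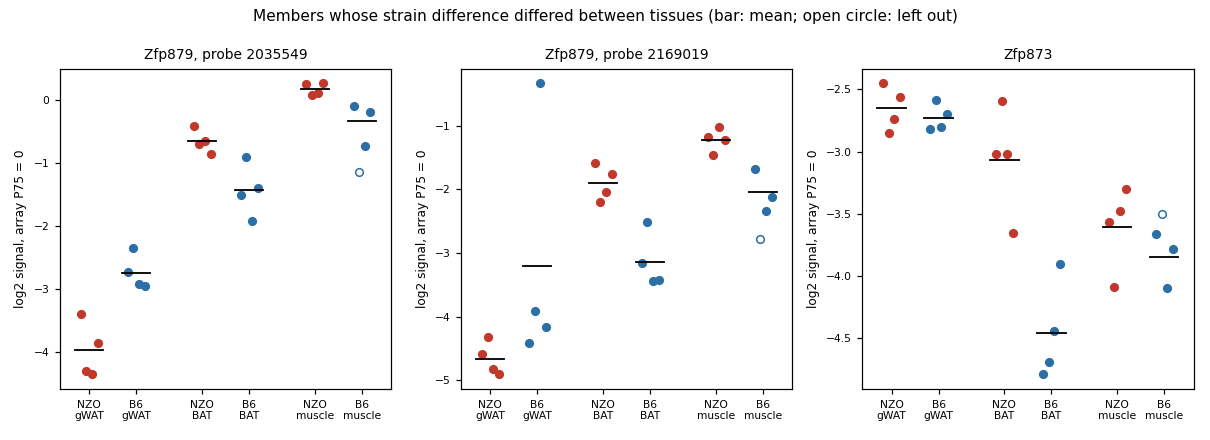
Level on each array (log2 signal, array 75th percentile = 0) of both Zfp879 probes and of Zfp873, with NZO (red) left of B6 (blue) in gWAT, BAT and muscle; a bar is the mean and the open circle is B6 muscle array 011, left out. Zfp879 is lower in NZO gWAT and higher in NZO BAT than in B6 by the left probe, B6 gWAT array 015 stands at -0.33 in the middle plot, and Zfp873 differs between strains in BAT.

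Zfp873 read -2.45, -2.85, -2.73 and -2.56 in NZO gWAT against -2.82, -2.58, -2.80 and -2.70 in B6 gWAT, which overlap. In BAT the probe read -3.02, -2.59, -3.02 and -3.65 in NZO against -4.80, -4.70, -4.45 and -3.90 in B6, with no B6 array above background and NZO at least 2.03-fold higher (adjusted p = 0.00889). The test of gWAT minus BAT passed (adjusted p = 0.00562), with no exact size for the same reason. The plot of Zfp879 and Zfp873 levels sets these tissue patterns side by side. Summed muscle fibre markers were 0.01 to 3.02 in NZO BAT against 7.86 to 9.93 in B6 BAT on the log2 scale, with 4 to 8 of 8 above background in NZO BAT and all 8 in B6 BAT. Both Zfp879 probes were brighter in muscle than in BAT of the same strain, and both were higher in NZO BAT. The part of muscle RNA in the BAT differences was not tested.

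Levels of these genes also differed between tissues when both strains were averaged. Of 95 members 61 differed between BAT and gWAT, 36 higher and 25 lower in BAT, beside 70.8% of all probes (43.1% higher, 27.7% lower). Between muscle and gWAT 72 differed, 37 higher and 35 lower in muscle, beside 74.3% (39% higher, 35.3% lower). Both splits turned with the scaling: with median centring 17 were higher and 39 lower in BAT, and 21 higher and 42 lower in muscle, and with quantile normalization 30 and 32, and 30 and 39. Zfp827 A_52_P486464 had a BAT minus gWAT value of 2.83 (SE 0.33), with Zfp872 at 2.15, and neither was above background on any gWAT array, so these sizes are not exact. Zfp879 A_55_P2035549, measured on all arrays, gave 2.31, while Zfp873 (-1.08), Zfp937 (-1.03) and Zfp945 (-0.96) had the lowest. Zfp879 had the highest muscle minus gWAT value, 3.28 (SE 0.16, adjusted p = 3.23e-13). Zfp810 had the lowest, -2.69 (SE 0.12), followed by Zfp820 A_52_P65077 (-1.89), Zfp809 (-1.72) and Zfp820 A_55_P1955325 (-1.64).

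Probes of 1 gene name often gave different strain differences. In gWAT 27 names had several tested probes, of which 4 had all probes past the threshold in 1 direction, 12 had some, 10 had none, and Zfp850 had probes past it both ways. In BAT 25 names had several, with 3 all in 1 direction, 9 some, 9 none and 4 both ways, namely Zfp882, Zfp932, Zfp933 and Zfp944. In muscle 21 names had several, with 1 all, 7 some, 13 none and 0 both ways. The median spread between probes of a name was 0.37, 0.59 and 0.34 on the log2 scale. The same counts and spreads over all genes with several probes were not made, so whether these are high is not known. For Zfp882, probe A_55_P2118891 was higher in NZO BAT (0.74, adjusted p = 0.00576) and muscle (0.70, adjusted p = 0.0167), while A_55_P2321004 was lower in NZO gWAT (-1.13, adjusted p = 0.00123) and BAT (-0.66, adjusted p = 0.0325). The muscle call was lost without B6 muscle array 009 (adjusted p = 0.0701), and the BAT decrease without any 1 of 7 of the 8 BAT arrays, all but NZO BAT array 003 (adjusted p 0.0602 to 0.0967). For Zfp850, which was near background, A_55_P2076085 was lower in NZO gWAT (-1.15, adjusted p = 0.0182) and A_65_P14710 higher (0.85, adjusted p = 0.00686). The first entered that test only through B6 and the second only through NZO, so both calls and their opposite directions are a description. The decrease was lost without B6 gWAT array 010 (adjusted p = 0.0502). Neither call passed after normexp background correction (adjusted p = 0.519 and 0.119).

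**Figure D5:**
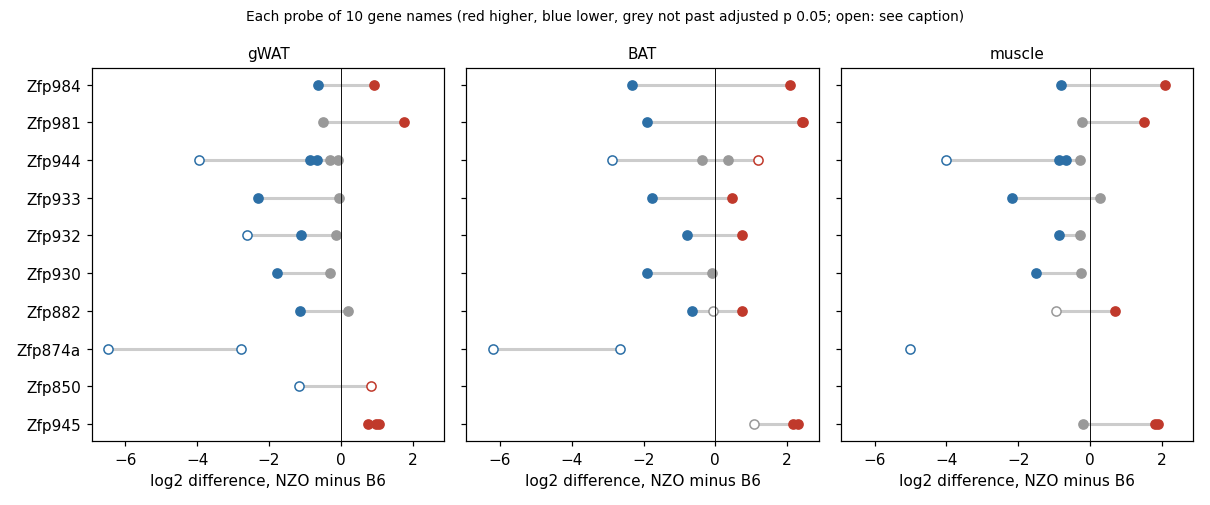
Log2 difference, NZO minus B6, of each tested probe of 10 gene names in gWAT, BAT and muscle, with a line joining probes of 1 name. Red is higher and blue lower at an adjusted p under 0.05, grey did not pass, and open circles were not well above background on all arrays of both strains; Zfp984 spans -2.31 to 2.09 in BAT and Zfp933 spans -1.77 to 0.46.

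The plot of each probe of 10 gene names shows how wide that spread was. Zinc finger genes share the linker between fingers, the amino acids TGEKP, whose code was searched as ACNGGNGANAANCC on both strands, with N any base. It occurs in 3 of the 106 member probes (2.83%), in 3 of the 29 renamed probes (10.3%), in 11 of 446 probes of other numbered Zfp genes (2.47%) and in 37 of all 55681 probes (0.0664%). On the opposite strand it occurs in 0 member probes and 4 of all (0.00718%). The 6 probes are printed whole, since it is the shared run that makes them unlike the others, with the linker in capitals.
Zfp931, A_55_P1996046, chr2:177802400-177802459, minus strand: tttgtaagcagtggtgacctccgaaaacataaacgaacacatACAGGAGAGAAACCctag
Zfp933, A_52_P694988, chr4:147200007-147200066, minus strand: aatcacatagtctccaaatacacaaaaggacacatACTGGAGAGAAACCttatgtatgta
Zfp936, A_55_P1996082, chr7:50445732-50445791, plus strand: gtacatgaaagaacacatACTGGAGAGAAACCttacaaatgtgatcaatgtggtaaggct
Zfp967, A_55_P1995768, chr2:175208144-175208203, plus strand: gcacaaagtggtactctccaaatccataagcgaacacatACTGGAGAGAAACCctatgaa
Zfp975, A_55_P2062714, chr7:49917391-49917450, minus strand: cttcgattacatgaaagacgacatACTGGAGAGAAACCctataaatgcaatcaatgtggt
Zfp995, A_66_P127956, chr17:22017398-22017457, minus strand: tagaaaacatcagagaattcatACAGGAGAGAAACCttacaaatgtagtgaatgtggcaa
A run of at least 20 bases was shared by 10 member probes with a probe under another name, which can be an unnamed probe or a stretch of the genome. Zfp930 A_55_P1959076 is 1 of the 10, with 1 unnamed probe. Among renamed probes, Zfp992 A_55_P1995902 shared a run with 3 other probes and Zfp981 A_55_P2137701 with 1. Zfp936 A_55_P1996082 shared one with 13 other probes, Zfp930 A_51_P517120 with 9, Zfp933 A_52_P694988 with 8, Zfp941 A_55_P2062652 with 6 and Zfp931 A_55_P1996046 with 5, so transcripts of several genes could bind them and their values are uncertain as values of 1 gene.

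Genes that work with KRAB zinc finger proteins were set beside them from a list of 28 names, of which 27 are on the array. In gWAT 7 were higher and 1 lower in NZO of 27 tested (29.6%, beside 31.8% of all probes), and in BAT 1 was higher and 1 lower of 26 (7.69%, beside 15.3%). In muscle 0 of 26 passed in the limma fit. Without adjustment, a p under 0.05 in the same fit was reached by 14 of the listed genes in BAT and by 8 each in muscle and gWAT. How many of all probes reached that level was not counted, so these counts cannot be read as high or low. Trim28, the corepressor itself, gave -0.16, 0.28 and -0.14 (adjusted p = 0.238, 0.155 and 0.443), and Setdb1 gave -0.21, 0.25 and 0.15, neither past the threshold. Uhrf1, which recruits DNA methylation after replication, was higher in NZO gWAT (1.55, SE 0.10, adjusted p = 1.84e-05) and BAT (0.97, adjusted p = 0.00337), and the deacetylase Hdac1 was lower (-1.03, adjusted p = 0.000491, and -0.85, adjusted p = 0.0018). Cell cycle genes were also higher in NZO BAT than in B6 BAT, at 2.35 to 2.86 against 1.15 to 1.38, and their part in the Uhrf1 difference was not tested. Within slides that held both strains, the members that passed had the sign of the fit in 35 of 35 cases on each of 2 slides in gWAT, 29 of 29 on 1 slide in BAT and 18 of 18 on 1 slide in muscle; the same arrays made the calls, so this sign was largely fixed by them. Zfp933 A_52_P88793 differed by -2.04 and -2.62 within the gWAT slides, by -1.68 within the BAT slide and by -2.33 within the muscle slide.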

How the data were processed

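Total RNA of each sample was labelled with Cy3 and read on 1 single-colour Agilent array per sample. The processed signal used here is an intensity that Agilent Feature Extraction background-subtracted within each array, per the file headers; the submitters' processing notes name version 9.1 and the file headers a later one. The deposited table of the series holds linear intensity values, which equalled the scanner files' median signals for 100% of 37877 identifiers within a tolerance of 1e-04, and served as an alternative. Here the deposited intensity was averaged over spots of a probe, put on a log2 scale, and each array's 75th percentile was subtracted.

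Tested in a tissue were probes that every array of 1 strain or of both marked as well above background. Strain differences were fitted per tissue, and differences between tissues over 23 arrays, with limma 3.58.1 in R 4.3.3, and Benjamini-Hochberg adjustment ran over all probes tested; every adjusted p comes from these fits, and a call is an adjusted p under 0.05. B6 muscle array 011 was left out by the rule that chose these genes. A bound (at least N-fold) divides the brighter strain's mean by a floor for the dimmer strain, on each array the lowest signal of any probe well above background, or the dim probe's signal where that is higher. A probe given a bound entered the test of that tissue only through the brighter strain, so the adjusted p beside a bound is a description. The same holds for each probe that was above background on all arrays of only 1 strain in a tissue. Errors are SD over arrays or SE of the fit, and the number of arrays limits the precision. Names in the files were kept; of the 106 probes 99 matched RefSeq (GRCm38.p6), and positions are mm9 as the files give them. Tables were handled with data.table, version 1.17.8, and figures used Python 3.11.15, pandas 2.3.3 and matplotlib 3.10.9, and the tests were tried on simulated data.

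Named were genes dark in 1 strain, the 8 highest and 8 lowest differences without overlap per tissue, members of clusters (gaps up to 1 Mb) around them, names whose probes disagreed, members with a known role, and the 4 highest and lowest tissue differences. Probes above background on no array, Zfp931 (for its linker) and Zfp853, Zfp811 and Zfp831 were named after their values were seen. The members and lists were chosen with earlier results of these data known. Replicate numbers were not used to pair the samples in the main fits. The 2 possible pairs between strains in BAT correlated at -0.048 and 0.091. The 20 pairs between tissues of a strain ran from -0.246 to 0.401, and 6 exceeded 0.1. With so few arrays per group these correlations cannot tell whether tissues shared animals. Alternatives were other background correction, scaling, filters, slide and replicate blocks, series values in place of scanner signals, 1 probe per gene, array 011 kept and each array left out.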

Additional observations from a re-analysis of the deposited data

Results flagged for a closer look

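A single array stood far from the other 3 of its group for some members, in 16 of 282 groups of 4 arrays examined; chance alone gives about 1 in 20 such groups. In B6 gWAT these were array 009 for Zfp800 A_55_P1955309 (-0.781) and Zfp949 A_51_P513244 (-1.75), array 011 for Zfp820 A_55_P1955325 (-0.815) and Zfp944 A_51_P233308 (-0.963), and array 015 for Zfp874a A_55_P2087691 (-3.66) and Zfp879 A_55_P2169019 (-0.329). In NZO BAT they were array 011 for Zfp867 A_55_P2123047 (-3.01), Zfp943 (2.42), Zfp945 A_66_P110532 (-3.81) and Zfp961 A_55_P2014570 (2.36), and array 007 for Zfp820 A_55_P1955325 (-1.81) and Zfp869 (0.803). In B6 BAT they were array 011 for Zfp809 A_52_P68477 (-0.0888) and Zfp937 A_55_P2057720 (-1.30) and array 010 for Zfp869 (1.33), and in NZO muscle array 007 for Zfp866 A_52_P22781 (0.922).

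The strain difference differed between gWAT and BAT, by the interaction term of the limma fit, for these genes beside Zfp944 (-1.48, with B6 BAT not above background), Zfp945 (-1.32 and -1.10) and Zfp939 (-0.72). Zfp879 gave -2.01 and -2.70, Zfp873 -1.31 (also not above background in B6 BAT), Zfp820 -0.85 and -0.86, Zfp932 A_55_P2032278 -0.86, Zfp866 A_52_P22781 -0.60, Zfp882 A_55_P2118891 -0.55, Zfp933 A_52_P88793 -0.54 and Zfp937 A_55_P2057720 -0.51. The -2.70 of Zfp879 ran from -3.10 to -1.74 with each array left out in turn. Among renamed genes Zfp981 A_55_P2125963 gave 1.40, Zfp984 1.67 and -1.17, and Zfp985 1.69.

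Between gWAT and muscle the difference of the strain effects was -0.88 for Zfp810, -0.95 and -0.70 for Zfp820, -0.47 for Zfp866, -1.75 for Zfp879 A_55_P2035549, -1.24 for Zfp944 A_55_P2167406, -0.82 and -0.85 for Zfp945 and 0.48 for Zfp947. It was -2.49 for Zfp932 A_55_P2025865 and 1.24 for Zfp951 A_66_P137410, both dark in 1 strain or in muscle, so their size depends on background. The first entered the test only through B6 gWAT and the second only through NZO gWAT, so these 2 calls are a description. The renamed Zfp984 A_55_P2008722 gave -1.17, Zfp985 2.02, Zfp992 A_55_P1995902 -0.53 and Zfp994 A_65_P11306 0.63. Between BAT and muscle it was 1.15 for Zfp873, 1.01 for Zfp932 A_55_P2032278, 0.71 for Zfp947, -1.67 and 0.94 for Zfp981, -1.51 for Zfp984 A_55_P1995924 and 0.59 for Zfp994 A_55_P2134571. Of these, Zfp879 A_55_P2035549 changed sign, lower in NZO gWAT and higher in NZO BAT, and the gWAT call did not pass after normexp background correction (-0.31). Several were lost without 1 array: Zfp994 in BAT minus muscle without any 1 of 15 of the 23 arrays (adjusted p 0.0521 to 0.135) and Zfp932 A_55_P2025865 in gWAT minus muscle without any 1 of 18 (adjusted p 0.0511 to 0.0997).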

How the results depend on the processing

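The number of members called moved with the settings. In gWAT, 35 became 23 after normexp background correction, 20 with median centring, 20 with 1 probe per gene (55 tested) and 22 from the series table. In BAT, 29 became 14 with 1 probe per gene, 16 from the series table and 9 with the replicate block. That block set NZO against B6 arrays of the same number, which are not the same animals. Only numbers 009 and 011 occur in both strains in BAT, so its strain differences rested on those arrays. In muscle, 18 became 11 with 1 probe per gene and 11 from the series table. For the strain effect in gWAT minus that in BAT, 15 became 5 with median centring. For gWAT minus muscle, 12 became 7 with quantile normalization, 3 with median centring and 7 with no filter. For BAT minus muscle, 3 became 0 with median centring and 0 with the slide as a fixed block in the limma fits. Fewer probes were tested with 1 probe per gene and from the series table, and fewer arrays carried the strain difference in the BAT replicate block. Elsewhere the cause was not tested. Leaving out each array in turn gave 27 to 32 in gWAT, 20 to 27 in BAT, 13 to 17 in muscle, 9 to 20 for gWAT minus BAT, 5 to 13 for gWAT minus muscle, 2 to 6 for BAT minus muscle, 55 to 62 for BAT against gWAT tissue levels and 67 to 75 for muscle against gWAT. The gWAT minus BAT count was 9 without NZO gWAT array 007. The gWAT minus muscle count was 5 without B6 gWAT array 011, and 7 without any 1 of NZO gWAT array 009, NZO muscle array 011 and B6 muscle arrays 015 and 009. The BAT minus muscle count was 6 without NZO muscle array 009 and 5 without NZO BAT array 007. Of 109 named strain differences, 50 kept their call under each alternative, for BAT that replicate block included, and 82 without each single array. Of 42 named differences between tissues, 14 and 23 did. The 109 include renamed probes, with Zfp979 and Zfp982 among them, and the 42 include renamed probes, with Zfp979 among them. Those 2 genes were selected on their strain differences, so these counts do not measure how stable the members were. None changed direction among those that passed. With arrays of a strain that share a replicate number taken as 1 block, there were 19, 12 and 4 calls between tissues and 61 and 73 for tissue levels. Dim probes limit what can be said: after normexp correction both bounds of Zfp874a A_55_P2087691 and the calls of Zfp879, Zfp932 A_55_P2025865 and Zfp882 A_55_P2321004 in gWAT did not pass.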
